A study of Mus musculus with 12 samples.

Results

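The 10 genes described here encode subunits of BAF, the mammalian form of the SWI/SNF chromatin remodelling complex, and are Smarca2, Smarca4, Smarcb1, Smarcc1, Smarcc2, Smarcd1, Smarcd2, Smarcd3, Smarce1 and Arid1a. They were found by symbol in the tables deposited for day 0 and day 2 and read by Ensembl identifier in the table of counts, where they were 10 of 55414 gene records. The genes were chosen by name with their CPM (counts scaled by library size and its TMM normalization factor) in the 4 groups already known from earlier results of these data. Their own levels and differences are therefore given as a description. All 10 passed the filter on low counts in every comparison, although Smarcd3 did so with a highest value of 3.58 CPM and, on day 0, through the LIP libraries alone.

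BAF uses the energy of ATP to slide or evict nucleosomes, which opens or closes DNA to transcription factors. Each complex carries a single ATPase, either SMARCA4 (BRG1) or SMARCA2 (BRM), and SMARCC and SMARCD proteins, while SMARCB1 and SMARCE1 are found in canonical BAF and PBAF and not in the non-canonical form. ARID1A and ARID1B define canonical BAF, whereas ARID2, PBRM1, BRD7 and PHF10 define the PBAF form and BRD9 with BICRA or BICRAL the non-canonical form. In the T cell lineage the complex is known for its part in silencing and activating the Cd4 locus during thymocyte development and in the opening of chromatin after antigen receptor stimulation.

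RNA was measured in 12 libraries of splenic CD4+ T cells of male wild-type BALB/c mice aged 18 weeks, with 3 libraries in each of 4 groups. Mice of the LIP group carried a silk ligature around molars of the upper jaw (ligature-induced periodontitis), and mice of the CTL group were anesthetized without a ligature. Cells of day 0 were not cultured, and cells of day 2 had been cultured with IL-2 (10 ng/ml), anti-TCRβ antibody (1 μg/ml) and anti-CD28 antibody, as the protocol in the labels states; the study's methods give other concentrations. The treatment labels of CTL 93 and LIP 96 name anti-CD29 and those of CTL 97 and LIP 97 anti-CD30 instead. The labels do not say whether a library is 1 animal or a pool, so the p-values measure only the spread between these libraries. Stimulation cannot be told apart from culture or time, because no cells were cultured without stimulation. Activation below names the difference between day 0 and day 2.

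The libraries held between 6249018 and 12866718 counts, and the limit set by a count of 0 (3 counts) came to 0.269 to 0.452 CPM, which covers counting error alone. Cd4, the defining gene, lay at 422 to 645 CPM, and Cd3d, Cd3e, Cd3g and Cd4 together at 1337 to 1818 CPM. Of the CD8 markers, Cd8a lay at 0.106 to 2.25 CPM and Cd8b1 at 3.29 to 10.95 CPM. The summed markers of stimulated and cycling cells (Il2ra, Myc, Mki67, Top2a, Mcm5 and Ccnb1) reached at most 376 CPM on day 0 and at least 5450 CPM on day 2, so every activation result below compares resting with dividing cells. A library stood apart on each day. On the first principal component, CTL 94 of day 0 (13.4) lay among the LIP libraries (7.78 to 18.4), and LIP 90 of day 2 (-8.11) lay far from LIP 96 (44.9) and LIP 97 (39.4). Results that rest on these libraries are given with and without them. In these bulk samples, fewer cells of a type and less RNA per cell cannot be told apart.

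The upstream sequences of Smarca2 and Smarcc1 are shown because these members had the largest differences between day 0 and day 2 in the CTL group, in opposite directions. Each is the 250 bases before the RefSeq start of the gene, on build GRCm38.p6 and the plus strand, 5′ to 3′, with every CpG dinucleotide in capitals.
Smarca2, chr19:26604910-26605159: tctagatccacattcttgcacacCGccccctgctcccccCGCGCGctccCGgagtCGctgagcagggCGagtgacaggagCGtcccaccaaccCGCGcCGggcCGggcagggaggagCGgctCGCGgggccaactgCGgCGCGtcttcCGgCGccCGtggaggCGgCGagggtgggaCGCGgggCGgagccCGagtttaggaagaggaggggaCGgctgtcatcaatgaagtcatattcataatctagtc
Smarcc1, chr9:110131774-110132023: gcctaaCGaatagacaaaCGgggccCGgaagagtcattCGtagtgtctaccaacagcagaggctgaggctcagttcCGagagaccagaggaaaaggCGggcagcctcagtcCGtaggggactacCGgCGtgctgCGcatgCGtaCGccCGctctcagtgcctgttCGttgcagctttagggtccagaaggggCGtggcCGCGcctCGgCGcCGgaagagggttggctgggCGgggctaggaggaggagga
The 2 stretches held 28 and 21 CpG dinucleotides. RefSeq promoter windows of 300 bases (250 before to 50 after the start) were found for 9 of the 10 members, 10 windows in all since Arid1a had 2. Of these, 9 held between 22 and 48 CpG dinucleotides, with 29 for Smarca2 and 33 for Smarcc1, and the window of Smarcd2 held 4. The median over all 32851 windows was 7, and 23.1% of them held at least 22. The E-box CACGTG, searched on both strands, occurred in 0 of the 10 members' windows and in 7.15% of all windows, which says only that these letters are not in these windows.

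The summed level of the 10 genes ranged from 1306 to 1736 CPM over the 12 libraries. Levels of different genes were compared per kilobase, on the length of the merged exons of each gene. On this scale Arid1a led on day 0 with 50.0 ± 5.9 CPM per kilobase for CTL cells and 43.1 ± 1.0 for LIP cells (SD, n = 3, as for all values with ± unless stated otherwise). Smarca4 followed with 30.2 ± 2.7 and 30.3 ± 2.4 CPM per kilobase, and Smarcd3 was lowest with 0.167 ± 0.075 and 0.549 ± 0.073. All other neighbours in the order of day 0 were apart in their 3 libraries except Smarcd1 and Smarce1, whose ranges overlapped in both groups.

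On day 2 the order had changed at its head and near its foot. Smarca4 (37.9 ± 3.1 CPM per kilobase), Smarcc1 (37.8 ± 5.0) and Arid1a (31.4 ± 1.6) led in the CTL group. Smarca4 and Smarcc1 each overlapped the next gene in the order, and Arid1a lay apart from Smarcc2 after it. Smarca2 moved from the 6th to the 9th rank, from 12.9 ± 1.0 to 3.66 ± 0.26 CPM per kilobase for CTL cells and from 12.1 ± 0.54 to 3.14 ± 0.15 for LIP cells. The order depended on the length used. With the length of the canonical transcript, an alternative added after seeing the data, Smarca2 (30.8 ± 2.5) and Smarca4 (30.9 ± 2.7) overlapped on day 0 in the CTL group, and Smarcc1 led alone on day 2 with 89.7 ± 11.9 CPM per kilobase.

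**Figure D1:**
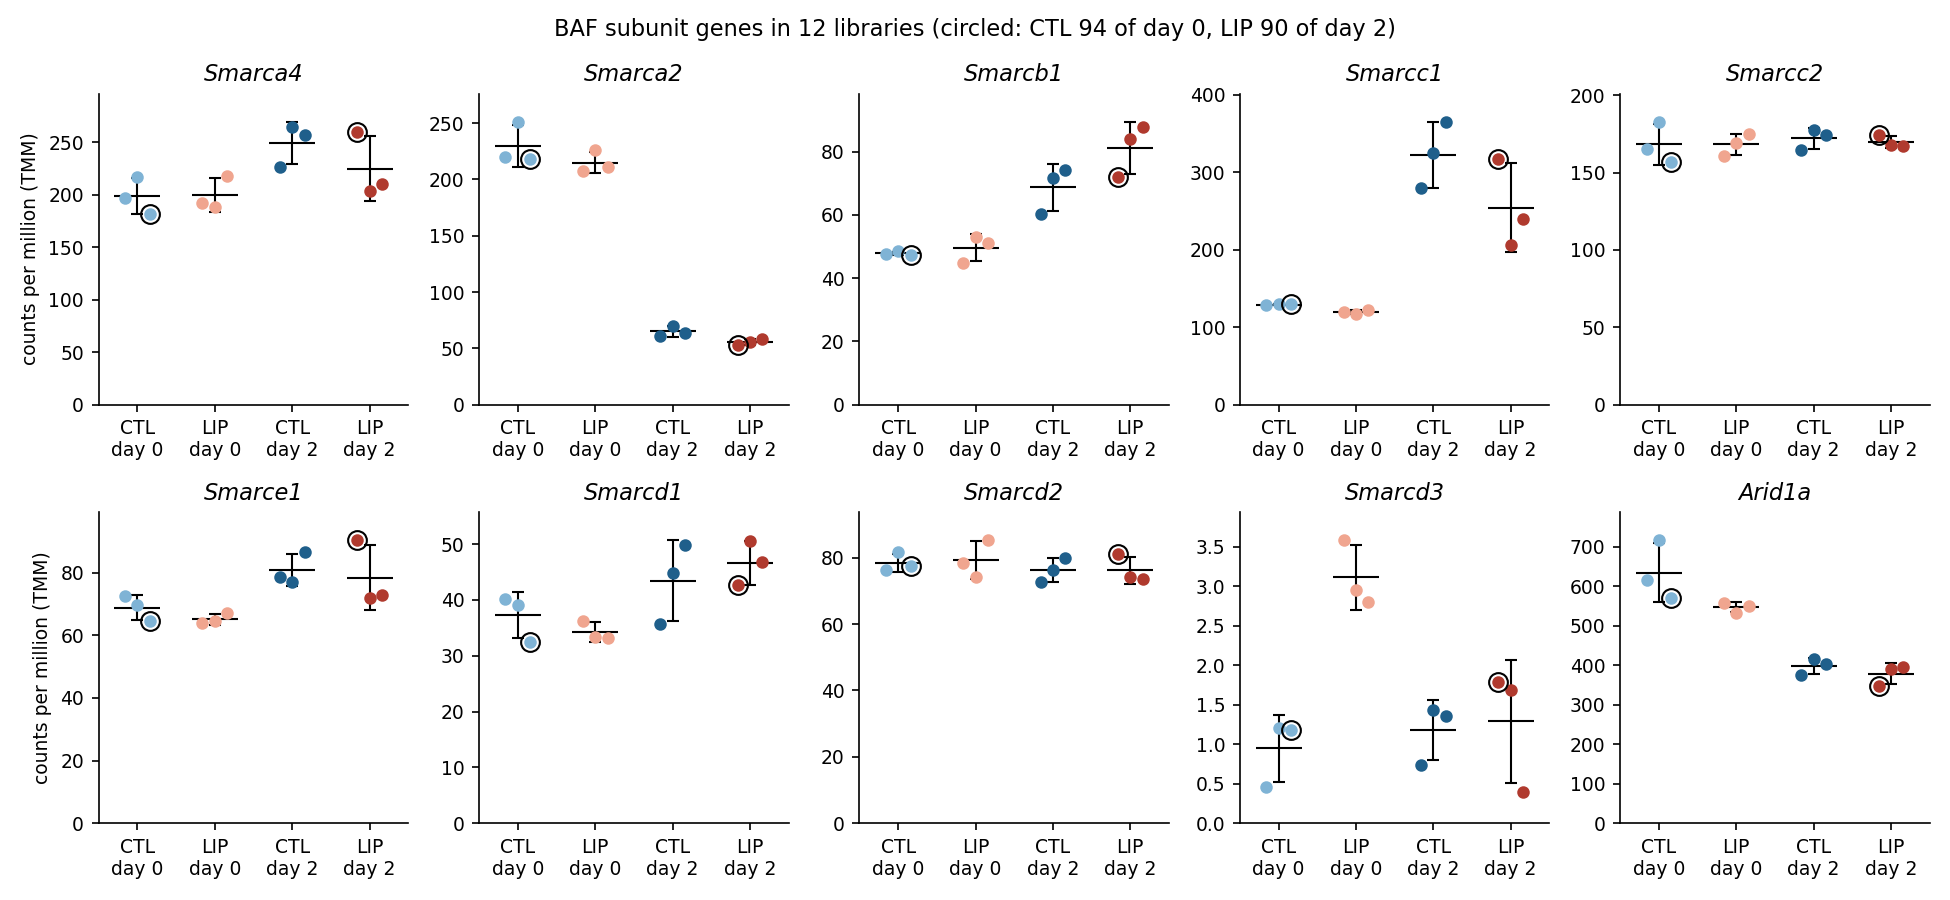
Level of each of the 10 genes in CPM (linear axes from 0, scaled per gene) for 3 libraries in each of 4 groups; points are libraries, black lines the group mean ± SD, and circles mark CTL 94 of day 0 and LIP 90 of day 2. Smarca2 lies at 208 to 251 CPM on day 0 and 53.2 to 70.2 CPM on day 2, and Smarcc1 at 117 to 130.1 CPM and 206 to 364 CPM.

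The first comparison asked how the subunits differ between resting cells and cells stimulated for 2 days. The ATPase genes diverged. Smarca2 was 3.53-fold lower on day 2 in the CTL group and 3.84-fold lower in the LIP group, while Smarca4 was at a similar or slightly higher level. Among the core genes Smarcc1 was 2.49-fold and 2.13-fold higher on day 2, Smarcb1 was higher in both groups, Smarce1 differed by 0.23 and 0.27 and Smarcc2 by 0.03 and 0.01 on the log2 scale. Arid1a was 1.59-fold and 1.44-fold lower on day 2 in these groups.

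Smarca2, the BRM ATPase (ENSMUSG00000024921, GRCm39 chromosome 19, 26582450 to 26755722, plus strand), was counted at 220.3, 251 and 218 CPM in CTL 88, 89 and 94 of day 0 and at 208, 226 and 211 CPM in LIP 92, 93 and 94. On day 2 it was at 61.2, 70.2 and 63.9 CPM in CTL 92, 93 and 97 and at 53.2, 56.0 and 58.7 CPM in LIP 90, 96 and 97. The lowest library of day 0 stood above the highest of day 2 in both groups. The log2 difference, day 2 minus day 0, was -1.82 ± 0.095 (SE) for CTL cells and -1.94 ± 0.096 (SE) for LIP cells.

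Smarca4, the BRG1 ATPase, was at 197, 217 and 182 CPM in the CTL group and at 192, 189 and 218 CPM in the LIP group on day 0. On day 2 the values were 226, 264 and 257 CPM in the CTL group and 259.9, 204 and 210.1 CPM in the LIP group. The days were apart in the CTL group and overlapped in the LIP group. Its log2 differences of 0.33 ± 0.12 and 0.17 ± 0.12 (SE) depended on the scaling, being 0.04 and -0.15 with upper-quartile normalization.

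The ratio of the 2 ATPase genes within a library is free of any scaling between libraries. On day 0 Smarca2 over Smarca4 was 1.16 ± 0.040 for CTL cells and 1.08 ± 0.11 for LIP cells, and it was 0.262 ± 0.011 and 0.253 ± 0.042 on day 2. All 6 libraries of day 0 lay between 0.970 and 1.20, and all 6 of day 2 between 0.205 and 0.279. Smarca2 thus made up 29.9% of the 2 ATPase genes per kilobase of merged exons on day 0 and 8.81% on day 2 in the CTL group. With canonical transcript lengths these shares were 49.9% and 18.4%.

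Smarcc1, a core scaffold subunit also known as BAF155 (ENSMUSG00000032481, chromosome 9, 109946776 to 110069252, plus strand), was at 128, 129 and 130.1 CPM in the CTL group and at 119.6, 117 and 122 CPM in the LIP group on day 0. On day 2 it was at 279, 324 and 364 CPM in the CTL group and at 317, 206 and 239.9 CPM in the LIP group. The days were apart in both groups, and on day 2 LIP 90 lay inside the range of the CTL libraries and the other 2 LIP libraries below it. The log2 differences between days were 1.32 ± 0.14 and 1.09 ± 0.14 (SE).

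Smarcc2, its paralogue BAF170, ranged from 157 to 183 CPM over all 12 libraries, and no group of it was apart from another. Its log2 differences of 0.03 and 0.01 became -0.25 and -0.31 with upper-quartile normalization. The ratio of Smarcc1 to Smarcc2 went from 0.771 ± 0.061 to 1.87 ± 0.20 for CTL cells and from 0.711 ± 0.027 to 1.49 ± 0.30 for LIP cells, so that Smarcc2 had the more counts on day 0 and Smarcc1 on day 2 in every library.

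Smarcb1, a core subunit that contacts the nucleosome, was at 44.8 to 53.2 CPM on day 0 and at 60.3 to 87.7 CPM on day 2, with no overlap between days. The log2 differences were 0.52 ± 0.11 in CTL cells and 0.71 ± 0.11 in LIP cells (SE). Over 21 alternative fits they ran from 0.23 to 0.61 in CTL cells and from 0.35 to 0.80 in LIP cells. The adjusted p was under 0.05 in 20 of these fits for CTL cells and in all 21 for LIP cells. Smarce1, the subunit with an HMG domain, was at 63.8 to 72.5 CPM on day 0 and 72.0 to 90.4 CPM on day 2, with log2 differences of 0.23 ± 0.11 and 0.27 ± 0.11 (SE) that turned negative with upper-quartile normalization, at -0.055 and -0.053. The expected counts were not whole numbers in 12 of 12 libraries for Smarcb1 and in 5 for Smarce1.

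The SMARCD genes encode alternative subunits that link the core to transcription factors. Smarcd2 stayed within 72.7 to 85.2 CPM in all 12 libraries, and Smarcd1 was at 32.5 to 40.2 CPM on day 0 and 35.6 to 50.6 CPM on day 2. The log2 differences of Smarcd1 were 0.22 ± 0.13 and 0.45 ± 0.13 (SE), and those of Smarcd2 -0.041 ± 0.090 and -0.058 ± 0.090 (SE). With upper-quartile normalization they became -0.067 and 0.13 for Smarcd1, and -0.33 and -0.38 for Smarcd2, which then passed the test. The exons of Smarcd2 share 1269 of 4446 bases with Psmc5 on the opposite strand, which rose by 1.28 and 1.52 between days, and the part of Psmc5 in the level of Smarcd2 was not tested. Smarcd3 was close to the counting limit, with 3, 10 and 9 counts in CTL 88, 89 and 94 of day 0.

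Arid1a, which marks canonical BAF and binds DNA through its ARID domain (ENSMUSG00000007880, chromosome 4, 133406304 to 133484080, minus strand), was at 615, 716 and 569.5 CPM in the CTL group and at 556, 532 and 550.4 CPM in the LIP group on day 0. On day 2 it was at 376, 416 and 402 CPM in the CTL group and at 348, 389.8 and 396 CPM in the LIP group. No library of day 2 reached a library of day 0. The log2 differences were -0.67 ± 0.10 and -0.53 ± 0.10 (SE), and the ratio of Arid1a to its paralogue Arid1b went from 3.05 ± 0.073 to 2.08 ± 0.19 and from 3.32 ± 0.19 to 2.19 ± 0.17.

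**Figure D2:**
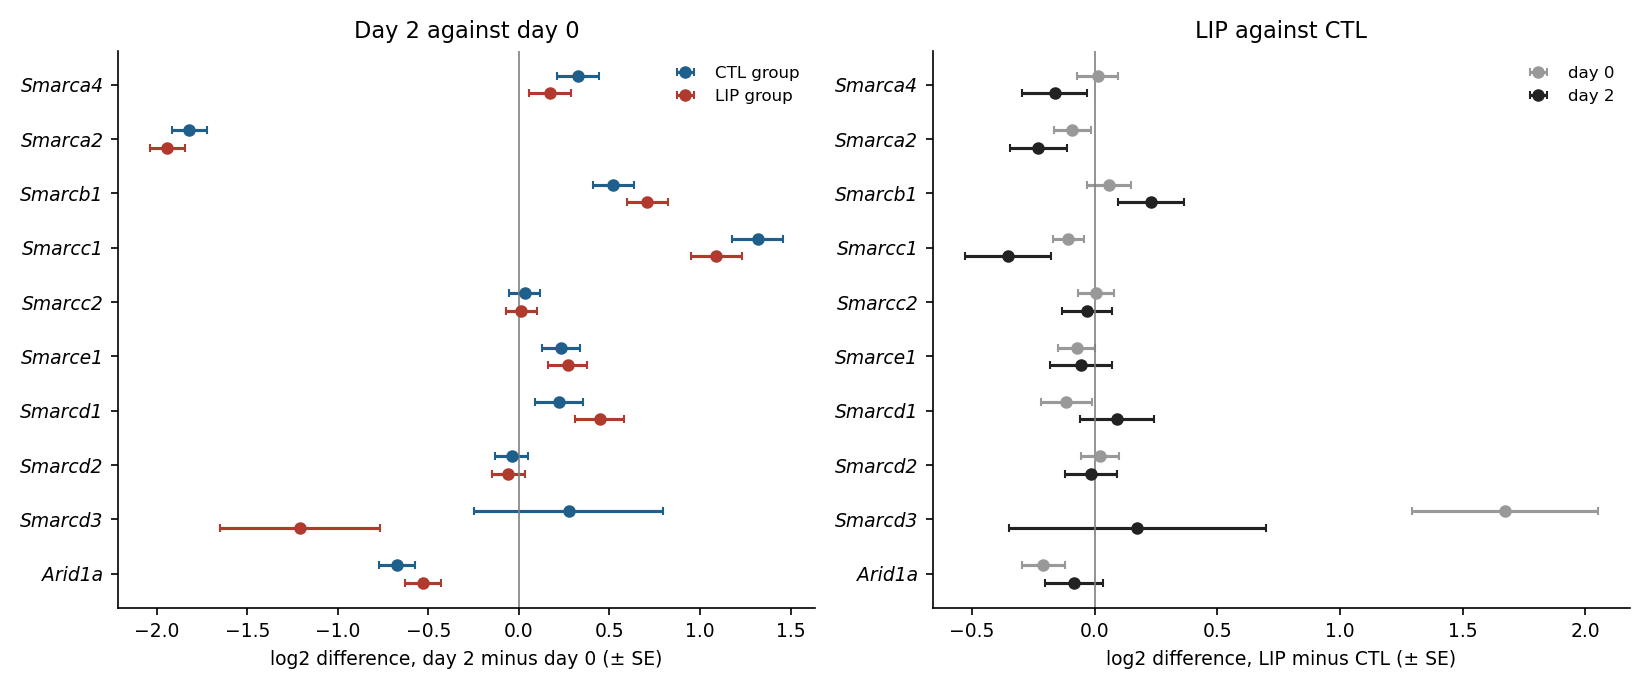
Log2 differences of the 10 genes ± SE of the fit; left, day 2 minus day 0 in the CTL group (blue) and the LIP group (red), and right, LIP minus CTL on day 0 (grey) and day 2 (black). Smarca2 lies at -1.82 and -1.94 on the left, and Smarcd3 at 1.67 on day 0 stands off on the right.

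Most genes differed between day 0 and day 2, so the calls of members read only against that background. With edgeR's quasi-likelihood test and an adjusted p under 0.05, 3 of the 10 members were higher on day 2 in the CTL group (Smarca4, Smarcb1 and Smarcc1), where 35.3% of the 15475 genes tested were, and 2 were lower (Smarca2 and Arid1a), where 33.7% were. In the LIP group 4 were higher (Smarcb1, Smarcc1, Smarce1 and Smarcd1) against 36.6% of all genes, and 3 were lower (Smarca2, Smarcd3 and Arid1a) against 35.2%. These counts were near the background, and nothing is read from them. The median log2 difference was 0.23 over the members and -0.02 over all genes in the CTL group, and 0.09 and -0.003 for LIP cells. With upper-quartile normalization the median of all genes moved to -0.31 and -0.32, the calls over all genes shifted from 5456 higher and 5220 lower to 4259 and 6827 in the CTL group, and the members called in that group became 1 higher and 4 lower.

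**Figure D3:**
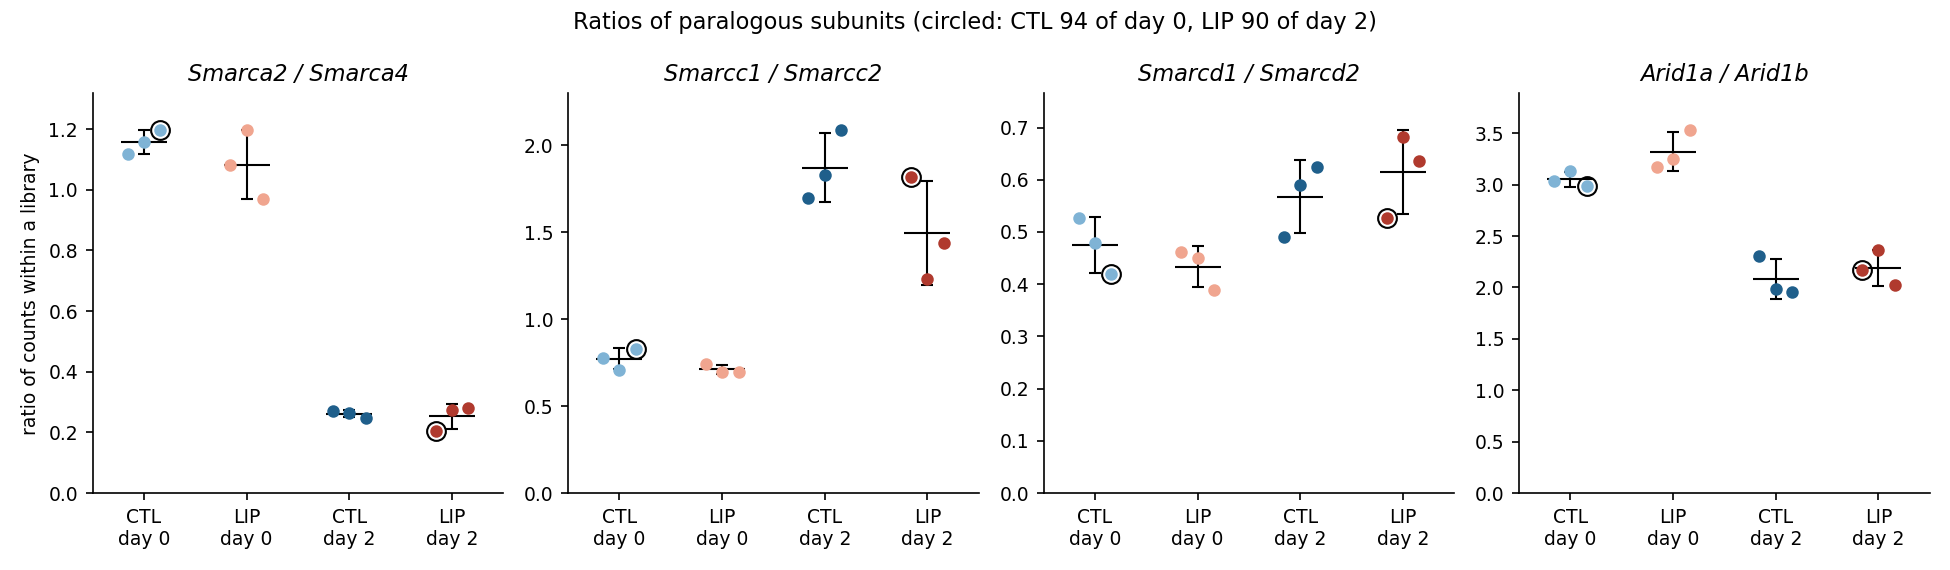
Ratio of the counts of paralogous subunit genes within each library (linear axes from 0), for 3 libraries in each of 4 groups; black lines are the mean ± SD and circles mark CTL 94 of day 0 and LIP 90 of day 2. The ratio of Smarca2 to Smarca4 lies at 0.970 or more on day 0 and at 0.279 or less on day 2, and the ratio of Smarcc1 to Smarcc2 goes from at most 0.828 to at least 1.23.

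The second comparison asked whether the subunits differed between the LIP and CTL groups before culture. On day 0 Smarcd3 and Arid1a had the largest differences, and the genes of the ATPases and of most of the core differed little. Smarcd3 was at 0.452, 1.20 and 1.18 CPM in CTL 88, 89 and 94 and at 3.58, 2.95 and 2.81 CPM in LIP 92, 93 and 94, which gave a log2 difference, LIP minus CTL, of 1.67 ± 0.38 (SE). Its groups did not overlap. Arid1a was lower in all 3 LIP libraries by a log2 difference of -0.21 ± 0.086 (SE), and Smarcc1 by -0.11 ± 0.064 (SE). The other 7 members lay within 0.12 of 0 on the log2 scale.

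At an adjusted p under 0.05 in edgeR's test 0 of the 10 members were called on day 0, against 0.427% of the 14064 genes tested, and DESeq2 called 0 as well, against 1.44%. At an unadjusted p under 0.05 there were 2, Smarcd3 and Arid1a, against 13.9% of all genes, and 3 members had groups that did not overlap, against 19.1%. Smarcd3 passed the filter on low counts on day 0 because 3 LIP libraries and 0 CTL libraries reached its minimum of 1.52 CPM, so it had to differ, and nothing is read from its p or from a count that includes it. Without CTL 94, where 4.59% of all genes were called, 0 of the other 9 members were. The difference of Smarcd3 rests on few reads, and its expected counts, like those of Smarcb1, were not whole numbers in 12 of 12 libraries. Its exons share 2466 of 5677 bases with Chpf2 on the opposite strand, a gene at 41.2 to 58.1 CPM, and the library kit is a directional one, whereas the strand setting of the counting is not given in the sources used here. Chpf2 itself differed by 0.15 ± 0.085 (SE) on day 0, with an adjusted p of 0.463 from edgeR, and its part in the value of Smarcd3 was not tested. The summed markers of myeloid cells were at 4.45 to 10.3 CPM in CTL libraries and 5.79 to 11.5 CPM in LIP libraries of day 0, those of NK cells at 1.93 to 5.53 and 5.24 to 9.49 CPM, and those of pancreatic acinar cells at 0 to 0.395 and 0.689 to 11.4 CPM. Of the 5 acinar markers, 4 or 5 were at 0 counts in each CTL library, 3 in LIP 92 and 0 in LIP 93 and LIP 94, whereas 2 of 5 myeloid markers and 0 of 2 NK markers were at 0 in each library. Their part in these differences was not tested.

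The third comparison asked the same after 2 days of stimulation. On day 2 Smarca2 was the only member whose groups did not overlap, at 61.2 to 70.2 CPM in the CTL group and 53.2 to 58.7 CPM in the LIP group, with a log2 difference of -0.23 ± 0.12 (SE). Smarcc1 (-0.35 ± 0.18), Smarcb1 (0.23 ± 0.13) and Smarca4 (-0.16 ± 0.13) had overlapping groups (± SE). The number of members with an adjusted p under 0.05 in edgeR's test was 0, where 0% of the 14041 genes tested were called, and with DESeq2 it was also 0, where 3.45% were. An unadjusted p under 0.05 was found for 0 members, against 16.5% of all genes, and 1 member had groups apart, against 21.5%.

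In 5 of the 10 members LIP 96 and LIP 97 lay outside the CTL range on the same side, as they did in 47.8% of all genes tested. LIP 90 joined them in 1 of these, Smarca2. All 3 LIP libraries thus lay outside the CTL range on one side in 1 of the 10 members, beside 21.5% of all genes tested. Smarcc1, Smarca4 and Smarce1 were lower and Smarcb1 higher in LIP 96 and 97 than in every CTL library. Without LIP 90, 1 member was called, Smarcc1, with a log2 difference of -0.51 ± 0.14 (SE), where 13.9% of all genes were called. The summed B cell markers were at 19.6 and 22.1 CPM in LIP 97 and LIP 96, at 0.896 CPM in LIP 90 and at 2.33 to 14.5 CPM in the CTL libraries, and those of CD8 T cells at 9.20 and 13.2, 4.93, and 4.43 to 6.33 CPM. In the LIP libraries 0 of the 4 B cell markers and 0 of the 2 CD8 markers were at 0 counts. Their part in these differences was not tested.

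The difference between the LIP and CTL groups in their response to activation was tested directly over all 12 libraries. Of the members 0 were called at an adjusted p under 0.05 in edgeR's test, against 0.0517% of all genes, and 0 with DESeq2, against 3.36%. Smarcd3, the gene of few reads, alone had an unadjusted p under 0.05, with a log2 difference of -1.48 ± 0.69 (SE), against 15.9% of all genes. Over 19 alternative fits that difference ran from -3.01 to -1.11, and LIP 90, 96 and 97 of day 2 held 20, 18 and 3 counts of it. The estimates for Smarca2 (-0.12 ± 0.13), Smarcc1 (-0.23 ± 0.20) and Arid1a (0.14 ± 0.14) were close to their SE in size. Without LIP 90 the count of members called stayed at 0, where 10.1% of all genes were called.

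The 21 other subunit genes of SWI/SNF complexes were listed by their membership of the complex, with earlier results of these data known, and 19 of them could be tested over the 12 libraries. They differed between the days in both directions. In the CTL group 6 rose and 5 fell at an adjusted p under 0.05, where 35.3% and 33.7% of all genes did, and in the LIP group 8 rose and 7 fell, where 36.6% and 35.2% did. With such shares over all genes, nothing is read from the counts of this list or of its groups below. Their median log2 difference was -0.14 for CTL cells and 0.01 for LIP cells, beside -0.02 and -0.003 over all genes.

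The genes specific to non-canonical BAF were Bicral, Bicra and Brd9, and all 3 fell between the days, as did 33.7% and 35.2% of all genes in the CTL and LIP groups. In the CTL group Bicral, which encodes a scaffold subunit, fell by 1.10 on the log2 scale (adjusted p = 3.24e-05, from edgeR as for the next values), its paralogue Bicra fell by 0.75 (adjusted p = 0.000529), and Brd9, a bromodomain subunit, fell by 0.72 (adjusted p = 4.1e-05). In the LIP group the same 3 genes fell by 0.67, 0.77 and 0.57.

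Of the 4 genes specific to PBAF 3 rose in both groups, beside 35.3% and 36.6% of all genes. Phf10, a PHD finger subunit, rose by 1.72 ± 0.25 (SE) in the CTL group and 2.58 ± 0.25 (SE) in the LIP group (adjusted p = 3.21e-05 and 6.66e-07). Brd7 rose by 0.39 and 0.47 and Pbrm1 by 0.22 and 0.25, whereas Arid2 had values of -0.14 and 0.01 that did not pass the test. With upper-quartile normalization Phf10 kept 1.43 and 2.27, Brd7 had 0.10 and 0.15 and Pbrm1 -0.071 and -0.069, none of the last 4 past the test. The exons of Brd7 share 1505 of 5297 bases with Adcy7 on the opposite strand, and the part of Adcy7 in its level was not tested.

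Among subunits shared by the forms of the complex, Actl6a, the actin-like subunit of proliferating cells, rose by 0.99 ± 0.14 (SE) in the CTL group and 0.98 ± 0.14 (SE) in the LIP group. Its neuronal counterpart Actl6b was at 0 counts in all 12 libraries. Bcl7c rose by 1.47 and 1.71, whereas its paralogue Bcl7b fell by 0.93 and 0.53. Bcl11b, a zinc finger protein of the T cell lineage that was listed with canonical BAF and not as shared, fell by 0.80 in each group.

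**Figure D4:**
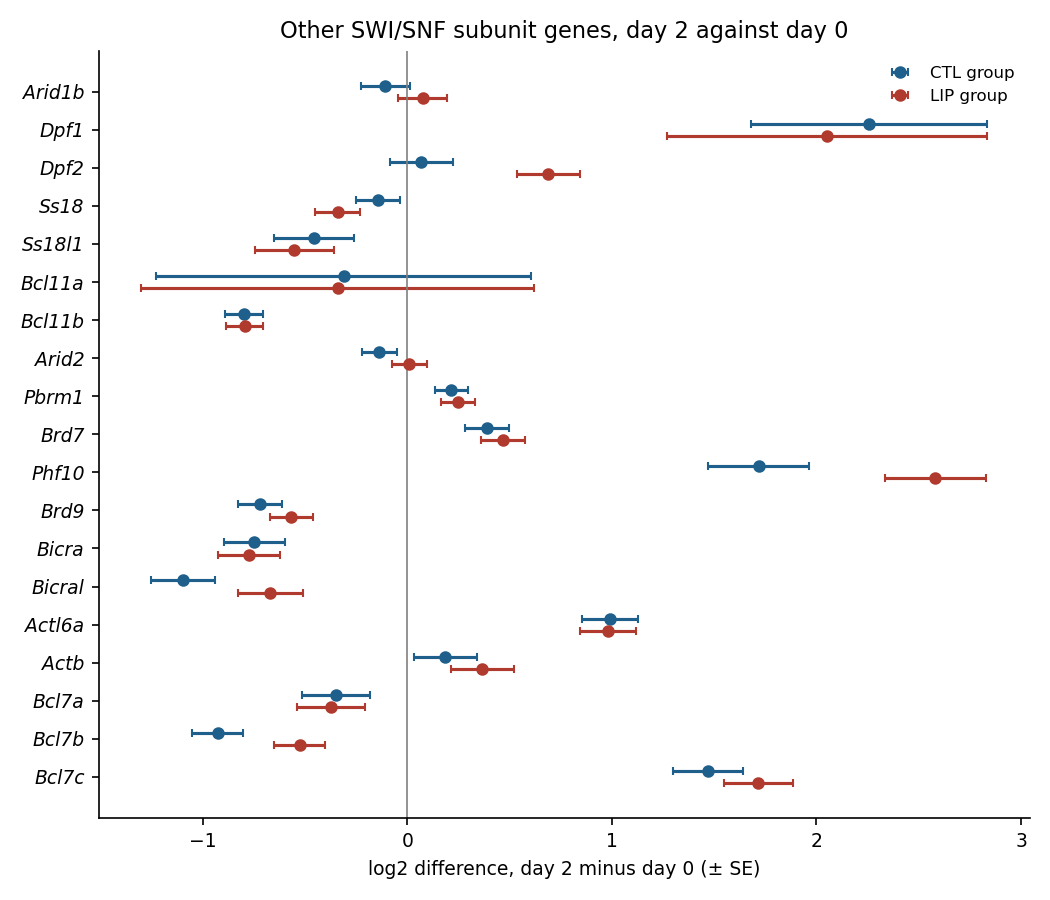
Log2 difference, day 2 minus day 0, of the 19 other SWI/SNF subunit genes that could be tested, ± SE of the fit, in the CTL group (blue) and the LIP group (red). Phf10 lies at 1.72 and 2.58, Bcl7c at 1.47 and 1.71, and Bicral at -1.10 and -0.67.

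Between the LIP and CTL groups 0 of the other subunits were called with edgeR on either day, and 3 of 17 and 4 of 18 tested had an unadjusted p under 0.05 on day 0 and day 2, beside 13.9% and 16.5% of all genes. DESeq2 called 1 lower on day 0, Arid1b, and 1 higher on day 2, beside 1.17% and 2.04% of all genes. The gene that DESeq2 called on day 2 was Phf10. It was at 82.3, 76.0 and 88.2 CPM in CTL 92, 93 and 97 and at 91.6, 208 and 213 CPM in LIP 90, 96 and 97. Every LIP library stood above every CTL library, and LIP 90 lay closest to them.

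The log2 difference of Phf10 was 1.05 ± 0.29 (SE) with an adjusted p of 0.159 in edgeR's test. Over 13 alternative fits the adjusted p ranged from 7.78e-05 to 0.528, and without LIP 90 the log2 difference was 1.37 ± 0.11 (SE) at the lower of these. Its exons share 1474 of 5956 bases with 1600012H06Rik on the opposite strand, which was at 13.97 to 17.9 CPM in the CTL libraries and 16.6 to 22.2 CPM in the LIP libraries of day 2. Dpf2, which encodes the related PHD finger subunit of canonical BAF, was also higher in LIP 96 and LIP 97 than in every CTL library. It had 87.3, 94.1 and 98.1 CPM in the CTL libraries and 97.4, 152 and 149.9 CPM in the LIP libraries. Unlike for Phf10, LIP 90 lay within the CTL range, so the groups of Dpf2 overlapped. Its adjusted p was 0.225 with all libraries and ranged from 0.00254, without LIP 90, to 0.574.

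**Figure D5:**
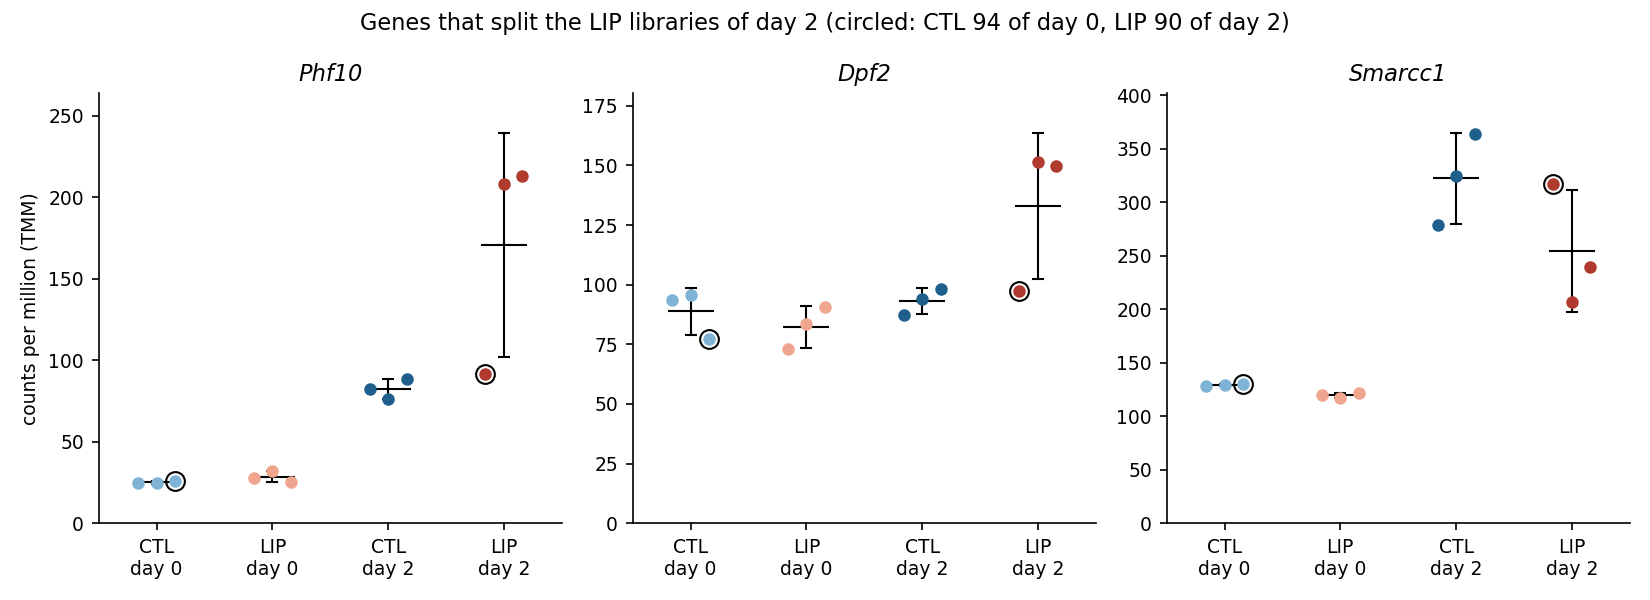
Level of Phf10, Dpf2 and Smarcc1 in CPM (linear axes from 0) for 3 libraries in each of 4 groups; black lines are the mean ± SD and circles mark CTL 94 of day 0 and LIP 90 of day 2. On day 2 LIP 90 lies near or within the CTL libraries in all 3 genes, with Phf10 at 91.6 CPM against 208 and 213 CPM in the other 2 LIP libraries.

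On day 0 the lower level of Arid1a in the LIP group stood beside a lower level of its paralogue Arid1b, another DNA-binding subunit of canonical BAF. Arid1b was at 202, 229 and 191 CPM in the CTL group and at 175, 164 and 156 CPM in the LIP group, with no overlap. Its log2 difference was -0.32 ± 0.081 (SE) with an adjusted p of 0.123, which ranged from 0.00932 to 0.572 over 13 alternative fits in edgeR and DESeq2. Without CTL 94 the log2 difference was -0.38 and the adjusted p 0.0161.

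The ATPases of other remodeller families were listed for comparison with Smarca2 and Smarca4. Of 18 tested, 5 rose and 7 fell in the CTL group, beside 35.3% and 33.7% of all genes. Hells, a SNF2-like ATPase of DNA replication and methylation, rose by 3.59 ± 0.16 (SE, adjusted p = 8.87e-10 from edgeR). The ISWI ATPase Smarca5 rose by 1.27, and the NuRD ATPases Chd4 and Chd3, which replace one another in that complex, rose by 1.01 and fell by 1.41. In the LIP group 4 rose and 9 fell, beside 36.6% and 35.2% of all genes. Between the LIP and CTL groups edgeR called 0 on either day, beside 0.427% and 0% of all genes, and DESeq2 called 0, beside 1.44% and 3.45%. In edgeR 2 and 3 had an unadjusted p under 0.05, beside 13.9% and 16.5% of all genes. Without CTL 94, 2 were called lower on day 0, Chd2 and Chd3 (adjusted p = 0.0442 and 0.0422 in edgeR), and without LIP 90, 1 was called higher on day 2, Chd2 (adjusted p = 0.0204), beside 4.59% and 13.9% of all genes. The exons of Chd2 share 2030 of 14300 bases with Chaserr on the same strand, and the part of Chaserr was not tested.

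The genes with profiles most like those of the ATPase genes were found by the root mean square difference of centred log2 CPM over the 12 libraries, among 15474 other genes. Nearest to Smarca2 were Sesn1, a stress-induced sestrin, Tcf7, the transcription factor of naive and memory T cells, and Macf1, a cytoskeletal linker, at 0.0873, 0.0889 and 0.0916, where the median of all genes was 0.985. Tcf7 went from 611 ± 50 to 187 ± 13 CPM in the CTL group, beside 229.8 ± 18.5 to 65.1 ± 4.6 CPM for Smarca2. Nearest to Smarca4 were Rpap1, Mcm3ap and Qrich1 at 0.0503, 0.0664 and 0.0671, with a median of 0.553. The 12 libraries share the large step between days, so such likeness is a description only.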

How the data were processed

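CD4+ T cell RNA was measured in 12 libraries, assigned to 4 groups of 3 by treatment label. The authors trimmed the reads, mapped them to GRCm39 and, with RSEM 1.3.0 on Bowtie2 alignments, estimated the deposited expected counts, which carry no normalization. A normalized signal per library and day was deposited too and gave only symbols here. In it, 2 day 2 columns match no labelled library and were not used, and LIP 96 and LIP 97 of day 2 were matched to no column. Whether these are the same libraries is not stated. The authors' own comparisons (log2 fold change, log CPM, p-value, false discovery rate) were not used either.

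The expected counts were rounded and tested in R 4.3.3 by the quasi-likelihood method of edgeR 4.0.16 (filterByExpr, TMM, Benjamini-Hochberg adjustment over all genes tested). LIP and CTL were compared within each day on 6 libraries, activation and its difference between groups on all 12. Scripts were tested on simulated data. Alternatives were DESeq2 1.42.0, other normalizations and filters, and leaving out libraries. Positions came from GENCODE M39. The genes named are the members, 2 lists (other SWI/SNF subunits, other remodeller ATPases), the 3 nearest profiles of each ATPase gene and markers. Psmc5, Chpf2 and 1600012H06Rik were added after their overlap was seen, and Adcy7 and Chaserr are named for their overlap only. Members and lists were chosen with earlier results of these data known. Trac and Hbb-bs were not analysed here.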

Additional observations from a re-analysis of the deposited data

Results flagged for a closer look

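Chd9, a CHD-family remodeller ATPase, was the one gene of the lists whose LIP and CTL groups did not overlap on either day and lay in opposite orders. The groups did not overlap in 19.1% of all genes tested on day 0 and in 21.5% on day 2. The share of all genes with both traits was not counted. Chd9 was picked by these same values, so its difference and p are a description only. On day 0 it was at no more than 94.2 CPM in the CTL group and 102 to 116 CPM in the LIP group, and on day 2 at 66.4 to 86.2 CPM and 53.9 to 66.2 CPM. The log2 difference between the LIP effects of the 2 days was -0.61 ± 0.16 (SE), with an adjusted p of 0.103 in edgeR's quasi-likelihood test over 12 libraries, which ranged from 0.0114, without LIP 90 of day 2, to 0.688 over 20 alternative fits. No group held enough libraries for a test of outlying libraries.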

How the results depend on the processing

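The calls and directions of Smarca2, Smarcc1 and Arid1a between days held in all 21 alternatives in both groups, apart from the call of Arid1a in the LIP group with the replicate block (adjusted p = 0.0606 in edgeR), with log2 differences of -2.11 to -1.75 and -2.30 to -1.85 for Smarca2, 1.03 to 1.42 and 0.73 to 1.23 for Smarcc1, and -0.96 to -0.51 and -0.89 to -0.47 for Arid1a (CTL and LIP groups). Small differences depended on the scaling. Smarce1 in the LIP group, 0.27 with TMM, was -0.053 with upper-quartile normalization and -0.093 with library totals. With upper-quartile normalization the members called in the CTL group went from 3 to 1 higher and from 2 to 4 lower. In the LIP group they went from 4 to 2 higher and from 3 to 5 lower with upper-quartile normalization and with library totals alike. All genes moved too, from 35.3% higher and 33.7% lower in the CTL group to 27.5% and 44.1% with upper-quartile normalization and 29.9% and 40.5% with library totals, and from 36.6% and 35.2% in the LIP group to 27.7% and 45.8%, and 26.7% and 47.1%. Other subunits called lower in the CTL group went from 5 to 10 with either scaling and to 8 with at least 10 counts in every library (where 36.0% of all genes were lower). Those called higher in the LIP group went from 8 to 4 with upper-quartile normalization, 3 with library totals, and 5 both with at least 10 counts and with 6 libraries in the fit (36.3% and 36.1% of all genes). The cause was not tested.

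Between LIP and CTL on day 0, members called higher went from 0 to 1 (Smarcd3) without the filter on low counts, and other subunits called lower from 0 to 1 without the filter and with DESeq2. On day 2 other subunits called higher went from 0 to 1 without the filter, with DESeq2 and with all 12 libraries in one fit. For the difference in activation, other subunits called higher went from 0 to 2 without the filter (1.82% of all genes) and to 3 without CTL 94 of day 0 and LIP 90 of day 2 (5.75%). Leaving out 1 library at a time gave 0 to 1 members called higher and 0 to 1 other subunits called lower on day 0 (1 each without CTL 94, the member being Smarcd3). On day 2 it gave 0 to 1 members called lower, 0 to 2 other subunits called higher and 0 to 2 called lower, and for the difference in activation 0 to 3 called higher, the highest each without LIP 90, where 7.74% of all genes were called higher and 6.19% lower on day 2 and 5.64% higher for the difference. The Smarca4 call in the CTL group held in 16 of 21 alternatives and was lost, among others, without CTL 94 (log2 difference 0.30). Library numbers are shared by 8 of 12 libraries, always between a CTL and an LIP group, so a shared number is not one animal under one treatment, and no label ties it to a litter or day. A fit of all 12 libraries with the number as a replicate block, added after seeing the data, had 1 residual degree of freedom. In it members called higher in the LIP group between days went from 4 to 2, other subunits called higher from 6 to 3 in the CTL group and from 8 to 4 in the LIP group, those called lower in the LIP group from 7 to 3, and other subunits called higher for the difference in activation from 0 to 1. Of all genes, that fit called 23.6% higher in the CTL group, 26.1% higher in the LIP group, 18.4% lower there and 2.39% higher for the difference, with fewer calls between days over all genes than without the block. The CTL and LIP groups of a single day share 1 number each, and no block was fitted for them.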
